A study of Mus musculus with 6 samples.

Results

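Mitosis and kinetochore genes were examined in regulatory T cells (Treg), the CD4 T cells defined by the transcription factor Foxp3. The set holds 38 genes, listed by name for their role in cell division, out of 18193 genes with a probe set on the arrays. The 38 were found by symbol in the annotation of the array, and 37 had a named probe set; no probe set carried the symbol Ccnb1, and cyclin B1 was not analysed here. A probe set is a group of short probes for a transcript, and its value is a MAS5 signal, a linear measure of brightness. Of several probe sets of a gene, the brightest over all arrays was used.

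The study set induced Treg (iTreg) against the whole Treg pool, with 3 one-colour Affymetrix arrays in each group, all of mesenteric lymph node cells from mice 4 to 6 weeks old. The iTreg came from TBmc mice on a Balb/c background with a Foxp3 GFP reporter, fed 1% ovalbumin (Ova) for 1 week, and the label of these cells adds Nrp-. In TBmc mice all T cells share an ovalbumin-specific receptor and all B cells share theirs too, so the Treg are clonal by receptor. The comparison group was total Treg of Balb/c wild-type (WT) mice, whose labels name no feeding, with the same Foxp3 GFP reporter, a mixture of many receptors and, as a rule, of cells made in the thymus and cells made outside it. Genotype, receptor, feeding and gate all differ between the groups and cannot be told apart. The strain label of iTreg replicate 1 names Balb/c alone, and the cell type given for WT replicate 1 ends in Nrp- although the title reads total Treg.

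Cells that divide switch on a common set of genes late in the cycle. Cyclins A and B bind the kinase Cdk1 and start mitosis, kinetochores tie chromosomes to the spindle, the spindle checkpoint delays anaphase until every kinetochore is attached, and the anaphase-promoting complex then destroys cyclins and securin. In resting lymphocytes these transcripts are low and in cycling ones they are high, so their level in a sorted population follows the share of cells in cycle. Part of the Treg pool of a lymph node is normally in cycle. In bulk samples such as these, fewer cycling cells and less RNA per cell cannot be told apart.

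Every array had been scaled to the same trimmed mean before deposit. Median signals ranged from 24.3 to 27.5 in iTreg and from 21.1 to 32.3 in WT Treg. Unspiked bacterial control probe sets, a measure of background, reached 28.5. Of 8 T cell and Treg markers, 7 lay above that level on every array, and Foxp3 itself, on a dim probe set, did not. The ratio of 3′ to 5′ Gapdh signal, which rises when RNA is degraded or poorly copied, had log2 values of 3.01, 2.46 and 3.35 on iTreg replicates 1, 2 and 3; the WT arrays gave 2.26, 2.49 and 2.33 (exact permutation test, two-sided, p = 0.2; the smallest p that 3 against 3 arrays can give is 0.1). The same ratio for Actb had log2 values of 0.375, 0.254 and -0.000436 in iTreg, against 0.138, 0.267 and 0.322 in WT (exact permutation test, two-sided, p = 0.8). Nothing in the labels says that replicates came from separate mice, so the p-values below reflect array-to-array spread only, and that spread may be technical.

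No mitosis gene passed the test between iTreg and WT Treg, given the spread between arrays. Signals were compared as log2(signal + 16), which understates the change of dim genes, with limma across 10916 genes, and genes below the 40th percentile of mean signal were not tested. Of the 37 measured genes, 35 were tested; Bub1 and Bub1b, spindle checkpoint genes, were too dim. By limma with Benjamini-Hochberg adjustment at 0.05, 0 of the 35 were called, beside 0.0275% of all genes tested (3 genes, all lower in iTreg). At an unadjusted p under 0.05, 1 of the 35 was higher, against 3% of all genes, and 0 were lower, against 4.58%.

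Of the 35 differences between the groups, 21 were positive and 14 negative, with a median log2 difference of 0.25, where all genes tested had a median of -0.03 and 47.2% positive. Without iTreg replicate 3 the median turned to -0.13, and with the mean of a gene's probe sets, or only probe sets specific by name, it was -0.01. For 26 of the 35 the difference between groups was smaller than the pooled SD between arrays of a group (74.3%, beside 66.2% of all genes tested), and 33 had groups that overlapped. The other 2 were Spc24, higher in iTreg, and Cenpa, lower; among all genes 5.1% lay without overlap higher and 7.78% lower. The 95% intervals cover the spread between these arrays, on the log2(signal + 16) scale. They stayed within a 2-fold change either way for Mki67, Ndc80, Prc1 and Kif22. That of Kif22 is for its brightest probe set, and its others differed by -0.03 and -0.89. Because the added 16 understates the change of dim genes, the limits of Ndc80, Prc1 and Kif22 hold on that scale only. Their lowest signals were 32.6, 54.5 and 111. The intervals of Hmmr and Ttk also stayed within a 2-fold change, but each gene lay above the control range on only 1 of 6 arrays. They therefore set no limit on a fold change. The intervals of the other tested genes reached beyond a 2-fold change up, down or both ways.

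**Figure D1:**
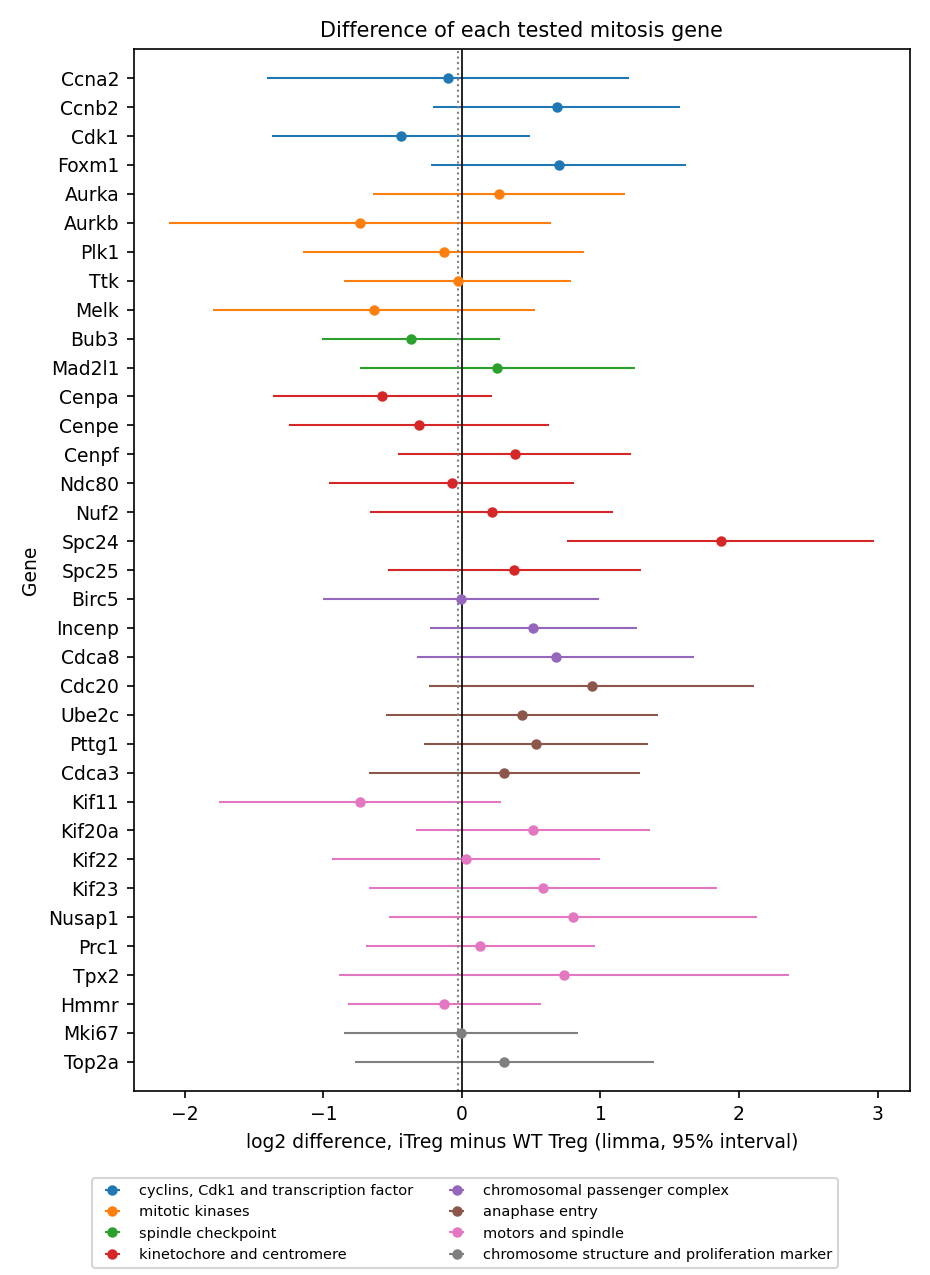
Log2 difference of each of the 35 tested genes, iTreg minus WT Treg on log2(signal + 16), with limma's 95% interval; colours give the role groups, the solid line is 0 and the dotted line the median of all genes tested (-0.03). Only the interval of Spc24 (0.76 to 2.98) excludes 0, with no adjustment for the number of genes.

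Kinetochore and centromere genes held both the strongest positive difference of the set and its only gene lower without overlap. Spc24 encodes a subunit of the Ndc80 complex, the part of the outer kinetochore that grips microtubules. On iTreg replicates 1, 2 and 3 its signal was 310.2, 115 and 385, and on the WT arrays, in the same order as for all genes below, 103, 31.7 and 45.7. The groups barely parted, at iTreg replicate 2 and WT replicate 1, and both groups varied more than 3-fold. Its log2 difference was 1.87 (standard error, SE, 0.51; limma adjusted p = 0.367). Spc24 kept its sign without any single array, from 1.55 to 2.36, with adjusted p from 0.173 to 0.834. A single probe set measured it.

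The partners of Spc24 in the same complex had smaller differences. Spc25, its direct partner, differed by 0.38, Nuf2 by 0.21 and Ndc80 by -0.08, all with overlapping groups; whether Spc24 differed from them was not tested. The second probe set of Spc25 differed by -0.07.

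Cenpa encodes the histone H3 variant that marks centromeres. Its signal was 119, 97.8 and 105 in iTreg, against 210.1, 137 and 161 in WT. Each iTreg array lay below every WT array, but the gap was narrow and the log2 difference of -0.57 (SE 0.36) did not pass (limma adjusted p = 0.752). Its other probe sets differed by -0.32 and 0.21, so the direction depended on the probe set. Cenpe, a kinetochore motor, differed by -0.31 and Cenpf, a large outer kinetochore protein, by 0.38.

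Cyclins and Cdk1 pointed both ways. Ccnb2, cyclin B2, read 121, 137 and 208 in iTreg, against 70.2, 69.8 and 137 in WT. The iTreg arrays were higher on average, but WT replicate 3 matched iTreg replicate 2, and the log2 difference of 0.68 (SE 0.41) did not pass (limma adjusted p = 0.739). Cdk1, the kinase that drives entry into mitosis, read 54.3, 21.4 and 65.8 in iTreg, against 50.3, 56.5 and 95.4 in WT, a log2 difference of -0.44 (limma adjusted p = 0.850). Ccna2, cyclin A2, ran from 53.1 to 388 among the iTreg arrays and from 103 to 323 among the WT arrays, and the group means were close (-0.10). Foxm1, the transcription factor of many late cell cycle genes, read 44.3, 44.8 and 11.5 in iTreg, against 11.7, 3.71 and 27.2 in WT. All 3 WT values and iTreg replicate 3 lay within the range of unspiked controls, and the log2 difference was 0.70 (SE 0.42; limma adjusted p = 0.741).

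Mitotic kinases and checkpoint genes were the role groups with negative medians. Of 5 kinases 4 differed negatively, with a median of -0.13 and adjusted p from 0.833 to 0.989 (limma). They were Aurkb, the kinase of the chromosomal passenger complex (-0.74), Melk (-0.63), Plk1, a kinase of centrosomes and kinetochores (-0.13), and the checkpoint kinase Ttk (-0.03). Aurka, the spindle pole kinase, was positive at 0.27. These genes were dim: no kinase of the set lay above the control range on all 6 arrays. Aurkb showed the spread, with at most 3.16 on iTreg replicates 1 and 2 and 89.2 on replicate 3, against 43.2, 15.2 and 74.7 in WT Treg: replicate 3 was highest in both groups.

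Among checkpoint genes, Bub3 read 1052, 948 and 751 in iTreg, against 1009, 978 and 1647 in WT. Apart from WT replicate 3 these values lie close together, and the log2 difference was -0.37 (SE 0.30; limma adjusted p = 0.820). Its 4 other probe sets differed by -0.19 to 0.16. Mad2l1, which holds back the anaphase-promoting complex, read 159, 91.3 and 311 in iTreg, against 161, 94.4 and 169 in WT, a log2 difference of 0.25. Replicates 1 and 2 of the groups were nearly equal for Mad2l1, and iTreg replicate 3 alone stood higher. Bub1, at 0.433 to 19.1, lay within the control range on every array, and Bub1b lay above it on 1 array, at 35.5.

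The chromosomal passenger complex guides chromosome attachment and the division of the cell body. Its borealin gene Cdca8 read 707, 1118 and 1185 in iTreg, against 257, 754 and 1133 in WT, a log2 difference of 0.68 (SE 0.46; limma adjusted p = 0.778). WT replicate 1 alone was low; the other 5 arrays overlapped. The scaffold gene Incenp read 1133, 1181 and 2531 in iTreg, against 931, 1353 and 908 in WT, where iTreg replicate 3 stood apart (log2 difference 0.52, SE 0.34, limma adjusted p = 0.771). Birc5, survivin, differed by 0.00 with overlapping groups, from 68.4 to 233 in iTreg and from 101 to 156 in WT Treg. The other probe sets of Cdca8 differed by -0.68 and -0.19, against the sign of the brightest. Those of Incenp, all dimmer, differed by -0.47, -0.06, 0.20 and 0.32.

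All 4 genes grouped under anaphase entry were positive on their brightest probe sets, and each was highest on iTreg replicate 3 there. Cdca3 is counted among them although it acts on entry into mitosis. Cdc20 and Pttg1 turned sign with probe sets specific by name. Cdc20, the activator of the anaphase-promoting complex, read 168, 66.4 and 347 in iTreg, against 51.2, 64.6 and 129 in WT. The groups overlapped, since iTreg replicate 2 lay below WT replicate 3, and the log2 difference was 0.94 (SE 0.54; limma adjusted p = 0.725). Its other probe sets differed by -0.17 and 0.36. Pttg1, securin, read 1927, 821 and 2459 in iTreg, against 956, 1207 and 1096 in WT (log2 difference 0.54, SE 0.37, limma adjusted p = 0.785). Its other probe sets differed by -0.72 and 0.08. On the brightest, iTreg replicate 2 was the lowest of all arrays and the other 2 iTreg arrays the highest. Ube2c, the ubiquitin-conjugating enzyme of the complex, differed by 0.44, and Cdca3, a regulator of entry into mitosis, by 0.31.

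Motors and spindle proteins were mostly positive on their brightest probe sets, 6 of 8 with a median of 0.32, and none passed (limma adjusted p from 0.752 to 0.991). Kif11, the kinesin that separates spindle poles, was the exception in size among the negative ones: 61.3, 16.2 and 66.7 in iTreg, against 71.4, 59.8 and 127 in WT, or -0.74 on the log2 scale (SE 0.47; limma adjusted p = 0.752). Its other probe sets differed by -0.39 and 0.72. Kif20a, a kinesin of the late spindle, read 215, 264 and 558 in iTreg, against 238, 232 and 188 in WT, a log2 difference of 0.51 (SE 0.39; limma adjusted p = 0.809), and iTreg replicate 3 stood above the rest. Nusap1, which bundles spindle microtubules, read 41.4, 36.6 and 237 in iTreg, against 21.8, 23.1 and 81.5 in WT, with replicate 3 highest in both groups (log2 difference 0.80, SE 0.61, limma adjusted p = 0.810). Tpx2, which activates Aurora A on the spindle, read 374 on iTreg replicate 3 and 19.6 to 41.3 on the other 5 arrays. Its other probe set above the filter differed by -0.46 and was highest on WT replicate 3, at 182. Kif23 differed by 0.59, Prc1 by 0.13, Kif22 by 0.03 and Hmmr by -0.13, all with overlapping groups. The other probe sets of Kif23 differed by -0.40 and -0.39 and those of Hmmr by 0.14 to 0.86, against the sign of the brightest. That of Prc1 differed by 0.01 and those of Kif22 by -0.03 and -0.89.

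The usual marks of cycling cells did not pass the test between the groups. Mki67, which encodes the Ki-67 protein, read 798, 631 and 1951 in iTreg, against 926, 852 and 1271 in WT. The iTreg arrays held both the lowest and the highest values, and replicate 3 was highest in each group. The log2 difference was -0.01 (SE 0.39; limma adjusted p = 0.996), and its 95% interval ran from a ratio of 0.553 to 1.79. Top2a, the topoisomerase that untangles chromosomes before they part, read 92.9, 114 and 305 in iTreg, against 109, 72.1 and 202 in WT, a log2 difference of 0.31 (SE 0.50; limma adjusted p = 0.910).

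**Figure D2:**
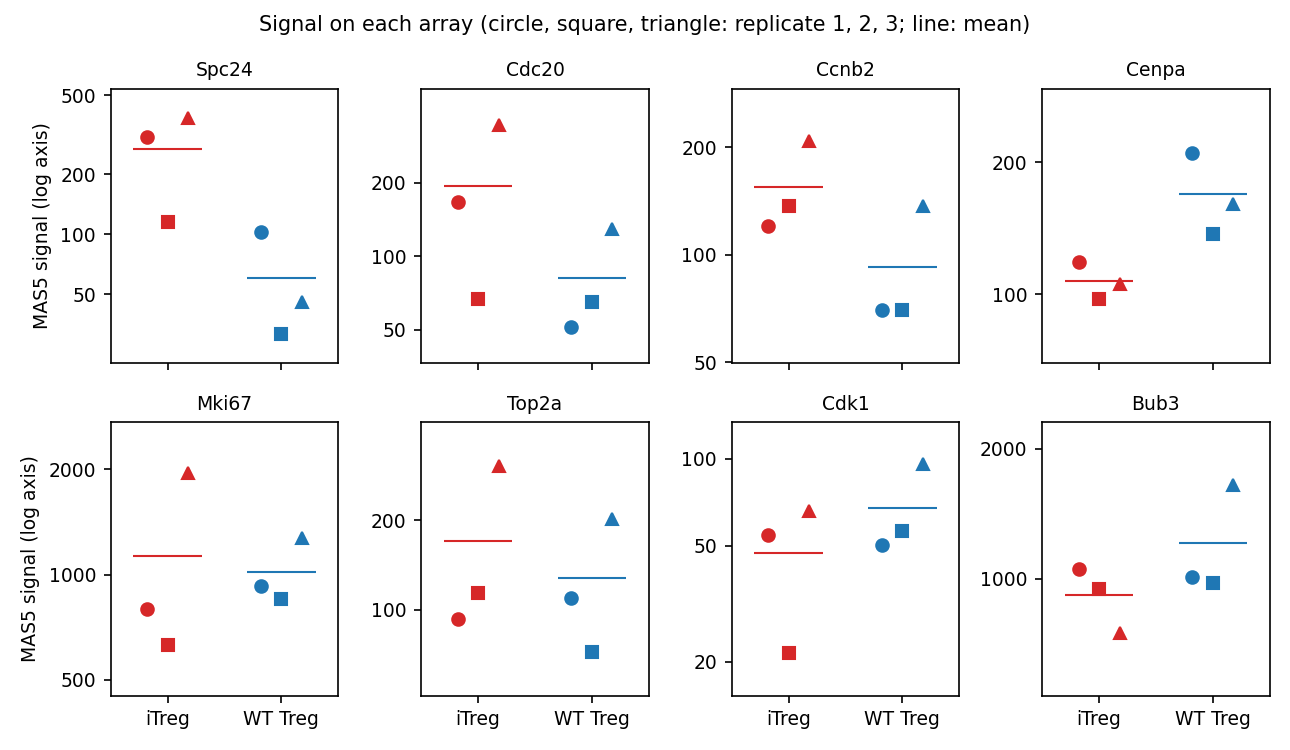
MAS5 signal of 8 genes on each array, on a log axis, with iTreg in red and WT Treg in blue; circle, square and triangle are replicates 1, 2 and 3 and lines are group means. Spc24 and Cenpa part the groups, while Mki67, Top2a, Cdc20 and Ccnb2 are highest on iTreg replicate 3.

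The larger differences in this set lay between arrays of the same group. The mean log2 level of the 37 measured genes was 6.65, 6.35 and 7.31 on iTreg replicates 1, 2 and 3, against 6.62, 6.32 and 6.86 on the WT arrays. By this mean replicate 3 was highest and replicate 2 lowest in each group, and the groups overlapped. By summed signal, which the brightest genes set, replicate 3 was again highest in each group, but WT replicate 1 was the lowest WT array (6277, against 6867 on WT replicate 2). The mean over all genes tested moved little, from 7.59 to 7.71. Of the 35 tested genes, 22 (62.9%) had their highest value of all 6 arrays on iTreg replicate 3, beside 23.3% of all genes tested. On that array the genes stood above the mean of iTreg replicates 1 and 2 in 30 of 35, by a median of 0.96, where all genes had a median of -0.04. In WT Treg, replicate 3 stood above the mean of replicates 1 and 2 in 26 of 35, by a median of 0.51, where all genes had 0.00.

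The count of genes highest on iTreg replicate 3 was 22 of 35 at each pseudocount and under each scaling tried, 17 of 33 with the mean of a gene's probe sets, and 14 of 29 with probe sets specific by name. Among the 15 brighter genes, at or above the 60th percentile of mean signal, it was 13, where 25.0% of all such genes were. Without iTreg replicate 3 the median difference between the groups turned from 0.25 to -0.13, with 15 genes positive and 20 negative. Without the replicate 3 arrays of both groups it was 0.02. Without both arrays whose labels disagree with their titles it was 0.31, and 0 genes were called.

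**Figure D3:**
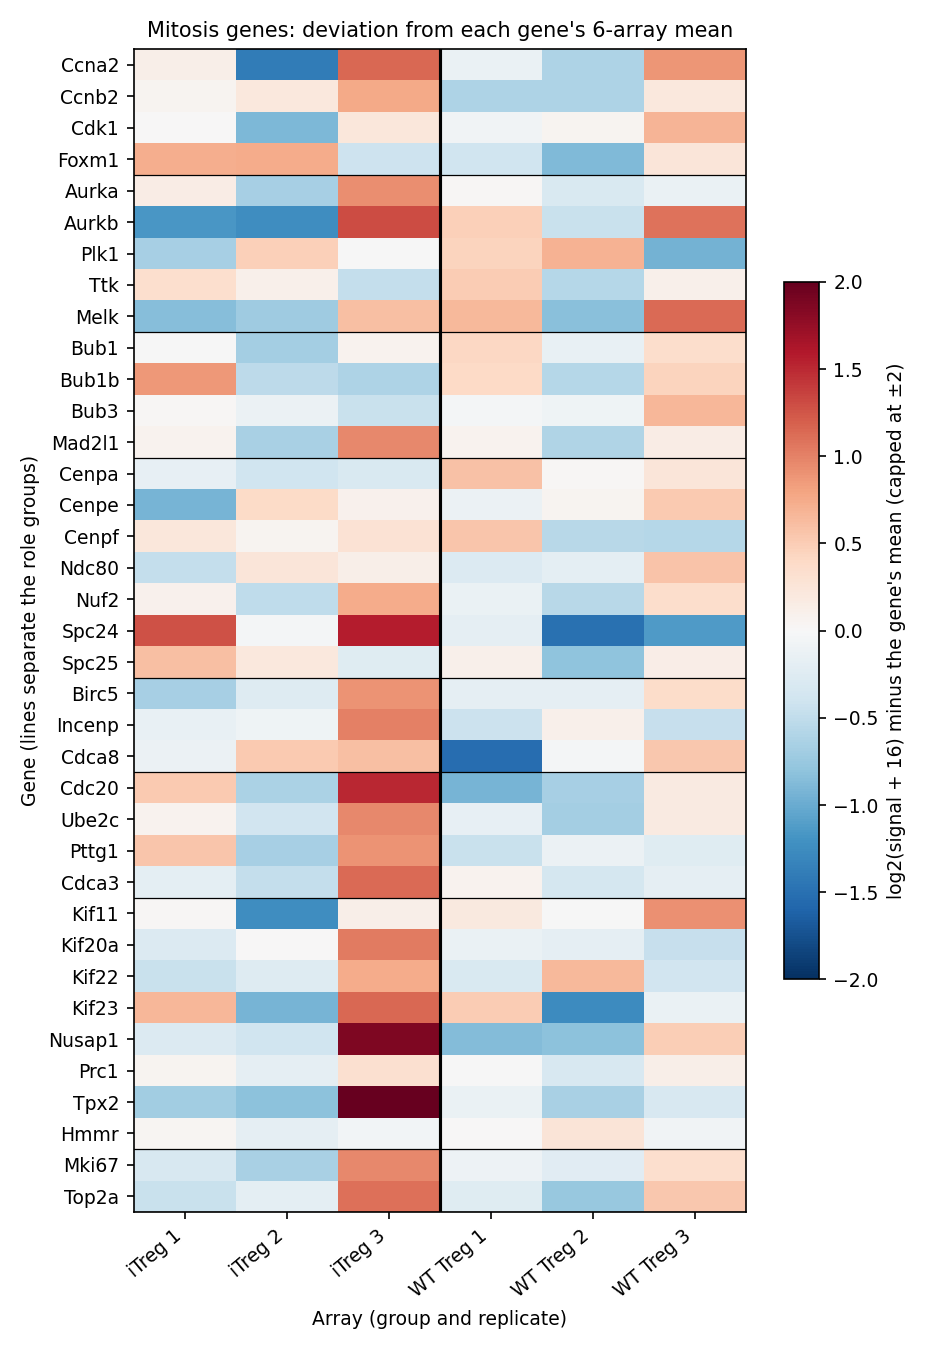
Each of the 37 measured genes (rows, grouped by role) on each array (columns), as log2(signal + 16) minus the gene's mean over the 6 arrays; red is above and blue below, with colours capped at 2. The column of iTreg replicate 3 is the reddest, with 22 of 35 tested genes highest there, and Spc24 is the row that follows the groups most.

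Several array measures moved with this pattern, and their part in it was not tested. Replicate 3 was the array with the lowest median signal in each group (24.3 and 21.1), and iTreg replicate 3 had the highest Gapdh 3′ to 5′ ratio of all arrays (3.35). The Actb ratio went the other way, with its lowest log2 value of all arrays on iTreg replicate 3 (-0.000436, against 0.138 to 0.375 on the others). WT replicate 3, the other high array, had a Gapdh ratio of 2.33, close to the other WT arrays. Among markers of other cells that could bring in dividing cells, the summed signal of 6 B cell markers was 87.9, 83.7 and 124 in iTreg, against 74.7, 121 and 124 in WT, so replicate 3 was the highest in each group here too. Cd79b, a B cell receptor subunit, was also highest on replicate 3 in each group, at 83.7 and 58.7. Other B cell markers did not share this. Cd79a was highest on replicate 3 in WT Treg (38.3) but lowest there in iTreg (12.8). Ebf1 was lowest on replicate 3 in each group (13.4 and 6.09). Of these markers Ms4a1, Pax5 and Blk lay within the control range on every array. The 4 germinal centre B cell markers summed to 53.6 to 92.0 in iTreg and 48.2 to 90.0 in WT Treg, with 79.9 on iTreg replicate 3. The markers listed for stroma and endothelium, which include Epcam, an epithelial gene, summed to 862 and 687 on the replicate 3 arrays, the highest of each group. Different genes carried these sums. Pecam1 was highest on iTreg replicate 3 (735) but lowest of WT on WT replicate 3 (341), where Epcam was highest (312). Col3a1, Pdpn and Cdh5 lay within the control range on every array. Plasma cell markers summed to 117 on iTreg replicate 3, the highest of iTreg, but to 107 on WT replicate 3, the lowest of WT. The 5 dendritic cell markers summed to 202 on iTreg replicate 3 and to 75.5 to 105 on the other arrays. Zbtb46 carried this, and Itgax, Flt3, Xcr1 and Siglech lay within the control range on all arrays.

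Of 87 other mitosis genes, among them further kinetochore, kinesin and condensin genes, 85 had a probe set and 68 were tested. Limma called 0 of them after adjustment, beside 0.0275% of all genes, and 1 was higher and 0 lower at an unadjusted p under 0.05. Their median difference was 0.11, with 43 positive and 25 negative; it was below that of the set here and above it with the mean of probe sets or with probe sets specific by name, and the lists were not tested against each other. The smallest p was that of Kif2c, a kinesin that takes microtubules apart, at 0.98 (limma adjusted p = 0.622). Cdc25c, the phosphatase that activates Cdk1, differed by 0.76 and Pmf1, a kinetochore gene, by 0.84. The other probe set of Pmf1, above the filter, differed by -1.18. Kif2c and Cdc25c each lay above the control range on only 2 of 6 arrays. Their other probe sets, all below the filter, differed by -0.47, -0.03 and 0.18 for Kif2c and by -0.57 for Cdc25c. On iTreg replicate 3, 34 of the 68 had their highest value.

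DNA replication genes, which peak earlier in the cycle, were also highest on replicate 3, and none passed between the groups. Their mean log2 level was 7.69, 7.43 and 8.01 on iTreg replicates 1, 2 and 3, against 7.71, 7.72 and 7.93 on the WT arrays, so replicate 3 was again the highest array of each group. Of 52 tested, limma called 0, with a median difference of -0.07, 23 positive and 29 negative. E2f1, the transcription factor of the start of S phase, had the smallest p: 68.1, 70.0 and 124 in iTreg, against 38.9, 20.9 and 10.4 in WT, without overlap, a log2 difference of 1.41 (SE 0.41; limma adjusted p = 0.405). Chaf1b, which loads histones on new DNA, differed by -1.19 and the polymerase gene Pold1 by -1.05.

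Among 23 tested G1 cyclins, CDK inhibitors and pocket proteins the median was 0.01, and limma called 0. Cdk6, a G1 kinase, differed by -1.07 (limma adjusted p = 0.598), and the pocket protein genes Rb1 and Rbl1 by 0.87 and 0.52. The 13 anaphase-promoting complex genes, present in cells at all stages, had a median of -0.16, 4 positive and 9 negative, and 0 were called. Their mean log2 level on iTreg replicate 3 was 8.43, the lowest of the 6 arrays. Those with the smallest p were Anapc13 (-0.65), Anapc10 (-0.74) and Fzr1 (0.48).

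**Figure D4:**
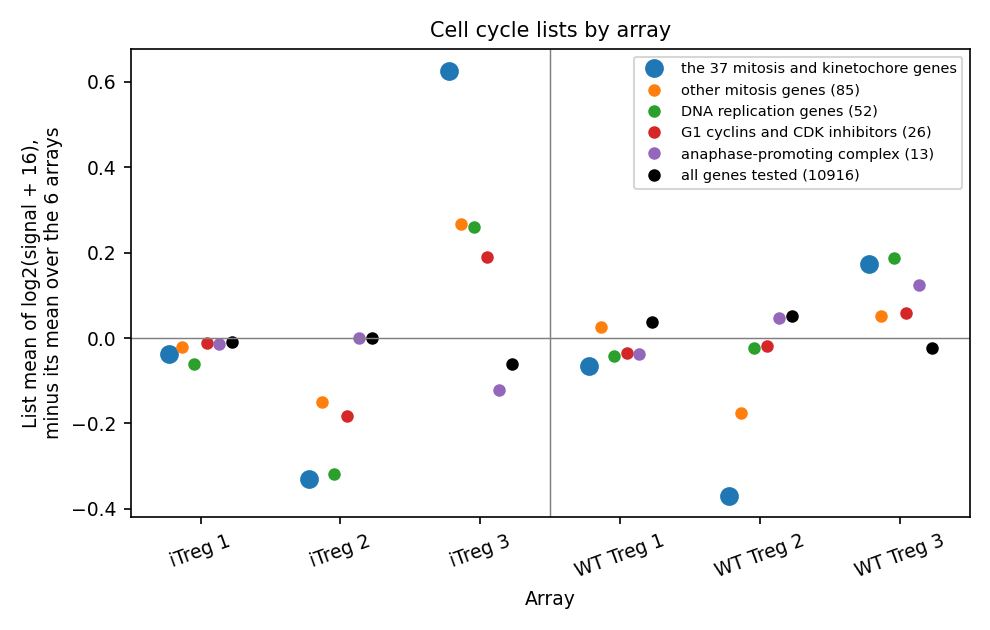
Mean log2(signal + 16) of each gene list on each array, minus the list's own mean over the 6 arrays. The mitosis and kinetochore genes (large blue points) are highest on iTreg replicate 3 and lowest on iTreg replicate 2 and WT replicate 2; all genes tested (black) stay near 0.

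Late cell cycle promoters are known to share CCAAT boxes, which bind the factor NF-Y, and the CHR (cell cycle genes homology region), which binds the DREAM and MuvB complexes. Because many of these genes were high on the same arrays, the 250 bases before their RefSeq starts (GRCm38.p6) were searched on both strands for CCAAT and for the CHR letters TTTGAA or TTCGAA. RefSeq promoters were matched for 30 of the 37 measured genes. CCAAT was found in 23 of 30 (76.7%), beside 34.5% of 27025 mouse promoters, and 17 of 30 held more than 1 (56.7%, beside 10.5%). The CHR letters were found in 10 of 30 (33.3%, beside 17.4%), and each of those 10 also held CCAAT (6.21% of all promoters hold both). The E2F letters TTTCCCGC, TTTCGCGC, TTTGCCGC or TTTGGCGC were found in 1 of 30 (3.33%, beside 1.91%). A match is a description of the sequence and shows no binding.

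Promoters of 6 genes described above are given because they show how the boxes are laid out. They are, of the 12 genes with the smallest p, the first 6 that hold a match, and capitals mark CCAAT or CHR letters on either strand (CCAAT reads ATTGG and TTTGAA reads TTCAAA on the other strand). Each runs 5′ to 3′ on the strand of the gene and ends at the base before the start. Cdc20 and Ccnb2 lie on the minus strand at chr4:118437344-118437593 and chr9:70421555-70421804. Cenpa and Kif11 lie on the plus strand at chr5:30666636-30666885 and chr19:37376132-37376381. Cdca8 lies on the minus strand at chr4:124936918-124937167, and Bub3, by the first of its listed starts, on the plus strand at chr7:131560120-131560369.
Cdc20: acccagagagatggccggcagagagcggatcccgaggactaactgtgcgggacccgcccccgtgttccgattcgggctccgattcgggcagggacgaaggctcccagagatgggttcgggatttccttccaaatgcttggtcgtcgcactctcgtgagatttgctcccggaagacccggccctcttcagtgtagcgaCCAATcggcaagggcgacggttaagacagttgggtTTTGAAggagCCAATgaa
Ccnb2: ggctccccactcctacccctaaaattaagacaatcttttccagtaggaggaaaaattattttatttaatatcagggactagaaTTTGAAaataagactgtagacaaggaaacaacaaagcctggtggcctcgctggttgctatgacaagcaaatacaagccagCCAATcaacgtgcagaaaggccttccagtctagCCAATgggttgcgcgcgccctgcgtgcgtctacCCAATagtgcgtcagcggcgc
Cenpa: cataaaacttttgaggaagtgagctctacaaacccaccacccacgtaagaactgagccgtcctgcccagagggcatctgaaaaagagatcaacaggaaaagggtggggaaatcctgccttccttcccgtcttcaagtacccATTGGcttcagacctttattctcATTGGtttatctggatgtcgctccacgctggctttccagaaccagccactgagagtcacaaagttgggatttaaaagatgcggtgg
Kif11: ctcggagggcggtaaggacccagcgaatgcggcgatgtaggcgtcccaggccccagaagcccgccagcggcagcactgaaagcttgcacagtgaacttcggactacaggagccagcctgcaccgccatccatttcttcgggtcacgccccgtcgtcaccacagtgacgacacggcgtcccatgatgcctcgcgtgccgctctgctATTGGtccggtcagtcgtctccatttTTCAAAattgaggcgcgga
Cdca8: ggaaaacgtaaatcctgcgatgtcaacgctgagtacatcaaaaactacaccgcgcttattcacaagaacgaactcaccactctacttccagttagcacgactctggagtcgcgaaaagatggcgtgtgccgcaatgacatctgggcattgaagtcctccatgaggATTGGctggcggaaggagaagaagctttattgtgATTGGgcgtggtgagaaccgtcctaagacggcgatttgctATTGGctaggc
Bub3: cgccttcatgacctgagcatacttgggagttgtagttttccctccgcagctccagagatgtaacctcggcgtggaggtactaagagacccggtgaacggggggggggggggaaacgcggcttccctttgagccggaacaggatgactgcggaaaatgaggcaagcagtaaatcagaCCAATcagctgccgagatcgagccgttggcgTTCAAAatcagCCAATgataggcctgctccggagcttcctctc

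Cdc20, Kif11 and Bub3 carry CHR letters at positions -18, -19 and -43 from the start, with CCAAT boxes near them. Ccnb2 and Cdca8 carry 3 CCAAT boxes each, and the CHR letters of Ccnb2 lie farthest from the start, at position -167. Cenpa holds 2 CCAAT boxes and no CHR letters in this window. These genes did not share a direction between the groups: Cdc20 (0.94), Ccnb2 (0.68) and Cdca8 (0.68) were positive, and Cenpa (-0.57), Kif11 (-0.74) and Bub3 (-0.37) negative, with 0 of them called.

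The sign of many differences depended on the probe set. The 37 genes had 86 probe sets, of which 64 were above the filter, and of these 35 differed positively, with a median of 0.04. Of 17 tested genes with a further probe set above the filter, 14 had at least 1 of opposite sign. With the mean of a gene's probe sets, or with only those whose names mark them as specific, the median difference of the set was -0.01 in place of 0.25. Spc24 was untouched by this, with its single probe set; it differed by 2.15 with a pseudocount of 1 and by 1.37 with 64.

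**Figure D5:**
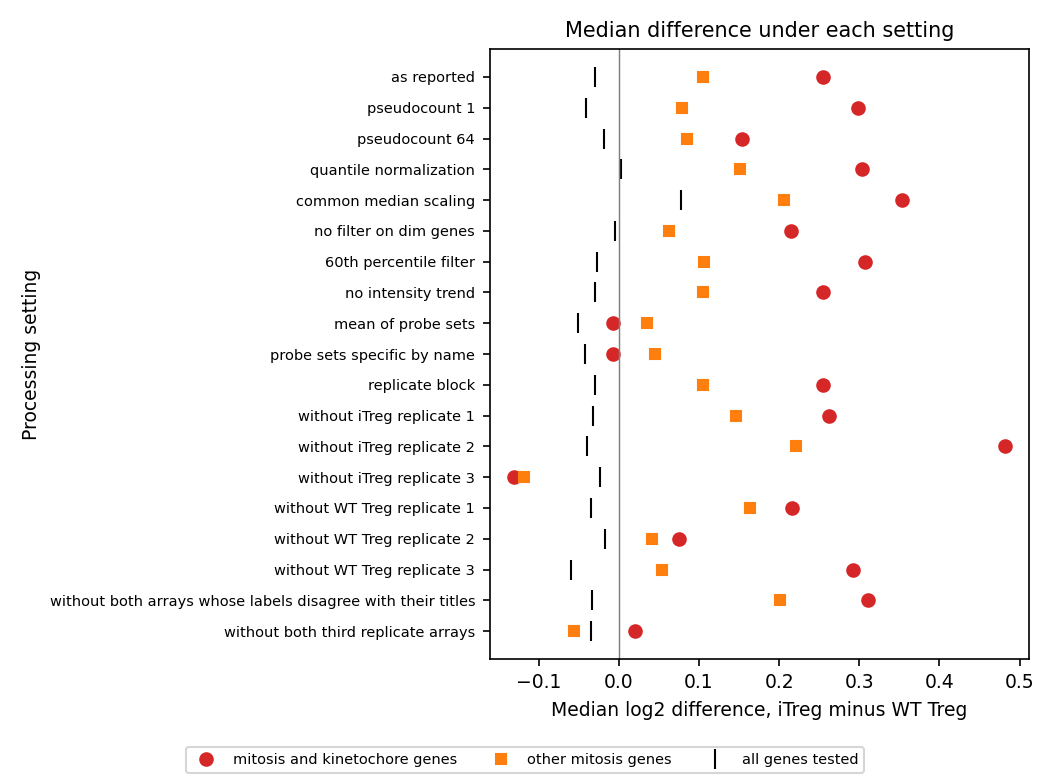
Median log2 difference (iTreg minus WT Treg) of the mitosis and kinetochore genes (red circles), other mitosis genes (orange squares) and all genes tested (black bars) under each processing setting. The set's median runs from -0.13 without iTreg replicate 3 to 0.48 without iTreg replicate 2.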

How the data were processed

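Gene expression was measured on 6 arrays, 3 iTreg and 3 WT Treg, grouped and numbered by the sample titles. Trizol extraction and biotin labelling are given in the labels' protocols. The authors deposited 1 MAS5 intensity per probe set on a linear scale, per the submitters' processing notes; the version and the genome build are not given in the sources used here. The values show that each array was scaled to a 2% trimmed mean of 150.0. Depth has no meaning for arrays, and the number of arrays limits the precision.

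Of 45101 probe sets, 34945 had 1 gene symbol in the platform annotation, 932 several, 9160 none and 64 were controls; only the first kind was used. Differences on log2(signal + 16) were tested with limma 3.58.1 in R 4.3.3 (lmFit, eBayes with an intensity trend, two-sided), adjusted over all 10916 genes at or above the 40th percentile (4.99) of 18193. The script was tested on simulated data. Array measures used exact permutation tests in SciPy 1.17.1. All genes of the set are named; full statistics go to the 12 with the smallest p, signals also to Mki67, Top2a and Cdk1, and the 3 smallest p of each other cell cycle list are named. Other genes were given signals, and the counts of genes highest on iTreg replicate 3 under other settings were added, after the values were seen. The genes were listed by role, but they, the other lists and the alternatives were chosen with earlier results of these data known.

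Replicate numbers were not used as pairs in the main fit. Over the genes tested, deviations of same-numbered arrays correlated at 0.169, 0.0456 and 0.130 for replicates 1, 2 and 3, and not all passed 0.1. Differently numbered arrays correlated at -0.172 to 0.053, so replicates 1 and 3 exceeded every such pair and replicate 2 did not. A shared effect of the replicate number was not tested, and the fit with that number as a block is given in the closing section. Marker lists not given in the results are summarised in the closing section. Sequences come from RefSeq, GRCm38.p6.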

Additional observations from a re-analysis of the deposited data

How the results depend on the processing

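Under the 18 alternatives to the processing, 0 of the set's genes and 0 of the other mitosis genes were called, and of 15 named genes Spc24, Ccnb2, Foxm1, Kif11, Incenp, Kif20a, Nusap1 and Cdk1 kept their direction wherever they were tested. The set's median difference ran from -0.13 to 0.48 when single arrays were left out, and its sign turned without iTreg replicate 3. Over all genes, 3 calls fell to 0 with a pseudocount of 1, with no filter, without both arrays whose labels disagree with their titles and without both replicate 3 arrays, and to between 0 and 1 without single arrays; the cause was not tested. Scaling to a common median moved the median of all genes from -0.03 to 0.08, gave 1 call higher and 3 lower, and made 26 of 35 genes of the set positive.

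Groups without overlap were found for 2 genes of the set (12.9% of all genes). With the mean of probe sets they were found for 2 of 33 (12.6% of all genes), both higher and so without Cenpa. With median scaling they were found for 1 of 35 (10.8% of all genes), and with probe sets specific by name for 1 of 29 (12.6%). Such groups were found for 3 to 8 of 35 without single arrays, where 21.4% to 27.5% of all genes had them. They were found for 5 without the arrays whose labels disagree (34.4% of all genes) and for 11 without both replicate 3 arrays (33.5% of all genes), where fewer arrays must be parted. With probe sets specific by name, these genes turned sign: Cdc20 to -0.17, Cenpa to 0.21, Cdca8 to -0.68, Pttg1 to -0.72, Bub3 to 0.16 and Top2a to -0.61. With the mean of probe sets Cdca8 turned to -0.0657, Pttg1 to -0.0370 and Top2a to -0.11. Bub3 was at 0.0072 without both replicate 3 arrays, and Mki67 at 0.12 with median scaling and 0.0943 without the arrays whose labels disagree. Without single arrays Bub3 ran from -0.50 to -0.13, Mki67 from -0.49 to 0.32 and Top2a from -0.17 to 0.66. The replicate number as a block left the set's median at 0.25 and its calls at 0, with the smallest adjusted p at 0.165 (limma, Spc24). With the block, 2 of 35 genes had an unadjusted p under 0.05 (limma), beside 1014 of all 10916 genes. Without single arrays 1 to 4 of 35 had, beside 570 to 1150 of all 10916 genes.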

Other observations

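Markers of other cell types were mostly within the range of unspiked controls. On every array this held for 3 of 6 macrophage and monocyte markers (Cd14, Adgre1 and C1qa), 3 of 4 plasma cell markers, 2 of 3 NK cell markers, 3 of 5 granulocyte markers, 2 of 3 erythroid markers and 3 of 6 stromal and endothelial markers. The summed signal of the granulocyte markers was 73.1 to 178 in iTreg and 30.8 to 38.3 in WT Treg, with S100a9 at 51.8, 78.5 and 33.0 against 13.1, 1.37 and 0.808. That of the macrophage and monocyte markers was 71.2 to 107 against 45.3 to 63.2. Plasma cell markers summed to 68.1 to 117 against 107 to 125, NK cell markers to 185 to 371 against 60.6 to 132, nearly all from Eomes, which T cells also express, and erythroid markers to 19.2 to 87.8 against 45.3 to 63.8. The markers listed for stroma and endothelium, Epcam included, summed to 428 to 862 against 487 to 687. The 2 CD8 markers summed to 101 to 225 against 73.2 to 107.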
